A study of Rattus norvegicus with 6 samples.

Results

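The genes described here are 10 genes grouped as the sarcomere scaffold. All but Trdn encode structural proteins of the contractile apparatus of skeletal muscle, and Trdn encodes a protein bound to its calcium release channel. The 10 genes were taken by gene symbol from the 37991 genes of an RNA-seq table of the rat Achilles tendon, and each symbol matched 1 gene. The 2 groups were male Sprague-Dawley rats whose right Achilles tendon was cut at 8 weeks of age together with the plantaris tendon. The labels call the tendon repaired, while the methods describe closure of the skin only. In the PM group, fine particulate matter (PM2.5) collected at a coal-fired plant was then inhaled on 3 occasions each week over 6 weeks, while rats of the non-PM group inhaled none. Each group had 3 samples, each a piece of the healed portion taken en bloc. Sprague-Dawley is an outbred stock, and nothing in the labels says which animal each sample came from, so the p-values below reflect only how much these samples vary, which may be technical.

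The sarcomere is the contractile unit of striated muscle, in which thin filaments of actin are anchored at the Z-disc and slide along thick filaments of myosin. Acta1 encodes skeletal α-actin, the body of the thin filament, and Neb encodes nebulin, which runs along that filament. Ttn encodes titin, the elastic giant that links the Z-disc with the thick filament, and Tcap encodes its cap at the Z-disc. Actn2 (α-actinin 2), Ldb3 (a PDZ and LIM protein) and Myoz1 (myozenin 1, which binds α-actinin and calcineurin and is enriched in fast fibres) belong to the Z-disc. Des encodes desmin, the intermediate filament that ties neighbouring Z-discs together, Mybpc1 encodes the slow type of myosin-binding protein C, and Trdn encodes triadin, which holds calsequestrin to the calcium release channel. Tendon cells make no sarcomeres, and muscle fibres meet the tendon at the myotendinous junction.

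The sequences just before the start sites of Acta1, Des and Myoz1 are shown because Acta1 is the most abundant of these genes, Des is an early muscle gene, and Myoz1 is the gene whose values part from the others below. Acta1 and Des were named with Tcap by rule, and Myoz1 was added after its values were seen. Each is the 250 bases before the RefSeq start on the GRCr8 build, a later build than the Rnor_6.0 of the expression table. They lie at chr19:68784195-68784444 (minus strand) for Acta1, chr9:84299376-84299625 (plus strand) for Des and chr15:3693363-3693612 (plus strand) for Myoz1. Capitals mark matches, on either strand, to TATAAA, the CArG box bound by serum response factor, the MEF2 site and the E-box CANNTG (of which CAGCTG is one form) bound by myogenic factors.
Acta1: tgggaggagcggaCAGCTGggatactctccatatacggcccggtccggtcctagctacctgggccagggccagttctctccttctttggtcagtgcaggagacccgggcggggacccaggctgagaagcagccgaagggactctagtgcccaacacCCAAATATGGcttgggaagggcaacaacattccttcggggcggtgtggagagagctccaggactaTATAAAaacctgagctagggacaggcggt
Des: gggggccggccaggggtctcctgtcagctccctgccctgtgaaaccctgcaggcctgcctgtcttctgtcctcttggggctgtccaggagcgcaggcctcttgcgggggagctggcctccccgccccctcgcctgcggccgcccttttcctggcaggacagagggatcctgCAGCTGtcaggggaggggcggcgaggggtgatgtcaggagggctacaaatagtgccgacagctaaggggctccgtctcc
Myoz1: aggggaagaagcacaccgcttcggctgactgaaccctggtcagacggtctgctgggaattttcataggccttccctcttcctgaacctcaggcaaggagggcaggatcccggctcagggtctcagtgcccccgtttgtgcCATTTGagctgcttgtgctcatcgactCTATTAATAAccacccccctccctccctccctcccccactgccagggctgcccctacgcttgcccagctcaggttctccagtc
Of the 10 genes, 9 were in the promoter table, Tcap being the one that was not. Acta1 held a CArG box from 94 to 85 bases before its start, an E-box of the form CAGCTG and a TATAAA, and Des held 1 CAGCTG, from 79 to 74 bases before its start. Myoz1 held a MEF2 site from 83 to 74 bases before its start and another E-box. Over the 9 genes, the CArG box was found in Acta1 and Ldb3 (2 of 9) and in 1.5% of all 33469 promoters of this length, and the MEF2 site in Myoz1 and Ttn (2 of 9) and in 2.96%. The E-box was found in 7 of 9 and in 65.5% of all promoters, its form CAGCTG in 3 of 9 and 12.0%, and TATAAA in 2 of 9 and 12.9%. These are matches of letters within a window and say nothing of whether a factor binds.

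Sarcomere scaffold genes were abundant in every library. The 10 genes took 2.0, 4.30 and 2.24% of all counts in PM replicates 1 to 3, against 3.13, 1.40 and 7.47% in non-PM replicates 1 to 3. The highest and the lowest library were both in the non-PM group, and the PM values lay between them. Mean shares were 2.85 ± 1.26% for PM samples and 4.0 ± 3.13% for non-PM samples (SD, n = 3 per group, two-sided exact permutation p = 0.8 on the log2 share). The difference in mean log2 share was -0.25 with all libraries and 0.36 without non-PM replicate 3, so that its direction rested on that library. The libraries held 46357986 to 62298837 counts, at which the 95% Wilson interval of a library's share was at most 0.0136 percentage points wide, covering counting error only.

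Non-PM replicates 3 and 2, the libraries with the highest and the lowest scaffold share, each stood apart in other markers. In non-PM replicate 3 the 8 tendon markers, most of whose counts came from Col1a1 and Col1a2, took 0.543% of counts, against 3.58, 4.24 and 7.38% in PM replicates 1 to 3 and 6.60 and 5.03% in non-PM replicates 1 and 2. That library was the lowest of the 6 for 5 of the 8 (Tnmd, Fmod, Comp, Col1a1 and Col1a2) and not for Scx, Mkx and Thbs4, with Scx at 39.9 CPM, against 20.3 to 42.4 CPM in PM replicates and 31.3 and 36.1 CPM in non-PM replicates 1 and 2. In non-PM replicate 2 the 4 keratinocyte markers took 0.0285% of counts, with 7827 counts of Krt5 and 5059 of Krt14, and they took at most 0.000614% in any other library. The part of this signal in the scaffold values of non-PM replicate 2 was not tested. Without that library the difference in mean log2 scaffold share was -0.85 and the median log2 fold change of the 10 genes -1.15, beside -0.69 with all libraries and 0.39 without non-PM replicate 3. The 10 markers of skeletal muscle fibres, fast and slow together, took 1.30, 3.52 and 2.25% of counts in PM replicates 1 to 3. In non-PM replicates 1 to 3 they took 1.77, 0.972 and 3.99%. They too were highest in non-PM replicate 3 and lowest in non-PM replicate 2. In these whole pieces of tissue, more muscle cells and more RNA per muscle cell cannot be told apart. The smooth muscle markers, which matter for Des because smooth muscle also makes desmin, took 0.11 to 0.169% of counts in PM and 0.0801 to 0.150% in non-PM libraries. The 6 markers of heart muscle, which also makes titin, Actn2, Tcap and Ldb3, took 0.0648 to 0.114% of counts in PM and 0.0607 to 0.348% in non-PM libraries. Of these, Myl7 had 0 counts, Nppa 16 counts and Mybpc3 72 counts over the 6 libraries together. Tnni3 had 1040 counts (1.44 to 5.59 FPKM) and Tnnt2 7739 counts (4.85 to 33.3 FPKM), and Myh6 reached 85.6 to 511.0 FPKM (fragments scaled by gene length and library size, computed by the authors). Myh6 is nearly identical in sequence to Myh7, the slow myosin of skeletal muscle and heart, so its reads may be divided between both records.

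No scaffold gene passed the test between the groups in the fit across all genes. In edgeR's quasi-likelihood test with Benjamini-Hochberg adjustment over the 18134 genes tested, all 10 passed the filter on low counts and 0 passed an adjusted p of 0.05, with 0 of them under an unadjusted p of 0.05. DESeq2 and limma also gave 0 of 10 on both counts. Across all genes edgeR called 0 (0.0%) after adjustment and DESeq2 called 13. A relaxed criterion taken from the study's methods, an unadjusted p under 0.05 with at least a 1.2-fold change, was met by 2.96% of all genes tested and by 0 of the 10. The CPM values (counts scaled to library size, with TMM factors) of the groups overlapped for all 10, while 9.68% of all genes tested had groups that did not overlap.

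**Figure D1:**
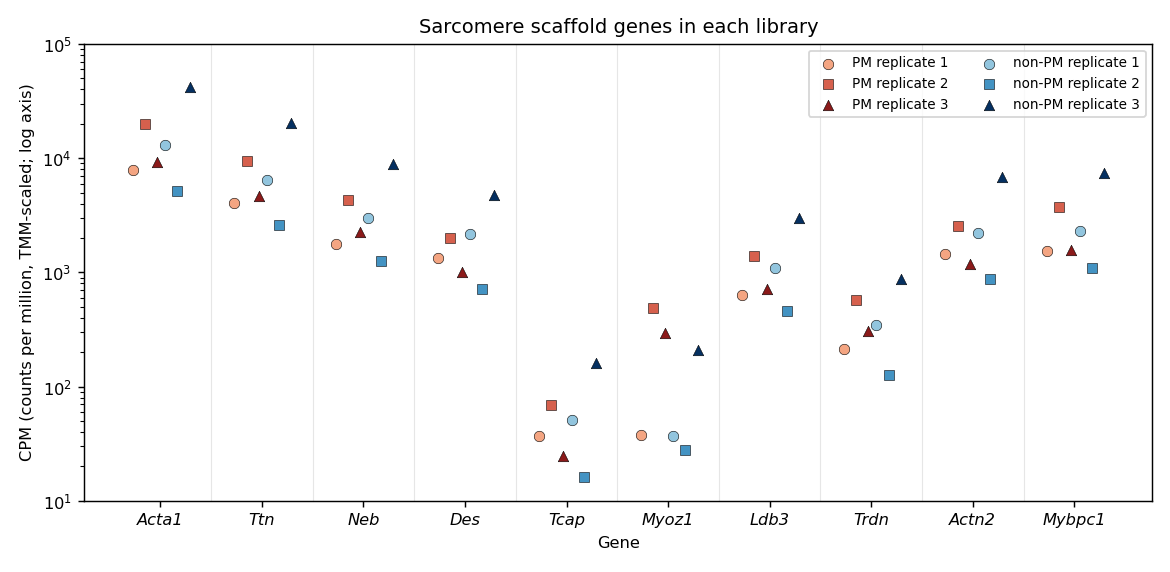
CPM (TMM-scaled, log axis) of the 10 sarcomere scaffold genes, 1 point per library, with the PM libraries at the left of each gene and the non-PM libraries at the right. Non-PM replicate 3 is the highest library for 9 genes, and PM replicate 2 is the highest for Myoz1.

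Of the thin filament genes, Acta1 (gene 29437) measured 7846, 19962 and 9289 CPM in PM replicates 1 to 3, against 13144, 5111 and 42114 CPM in non-PM replicates 1 to 3. Its log2 fold change was -0.70 ± 0.91 (SE, 3 samples per group, edgeR adjusted p = 0.942). The PM values lay inside the non-PM range. Acta1 shares most of its coding sequence with the other muscle actins, so reads may be divided between their records. Neb (gene 311029) measured 1779, 4281 and 2271 CPM in PM, against 3024, 1263 and 8809 CPM in non-PM replicates, with a log2 fold change of -0.65 ± 0.77. Again the PM libraries fell within the non-PM range, with the same library order as Acta1.

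Titin, the longest of these genes, gives many counts per molecule. Ttn (gene 84015) measured 4032, 9493 and 4667 CPM in PM replicates 1 to 3, against 6457, 2613 and 20188 CPM in non-PM replicates 1 to 3 (log2 fold change -0.69 ± 0.84). Per length, it was among the lowest of the 10, at 37.0, 79.4 and 41.9 FPKM in PM and 55.4, 25.4 and 138.0 FPKM in non-PM tendons. Its cap Tcap (gene 688173) had few counts, at 37.0, 68.8 and 24.8 CPM in PM and 50.9, 16.2 and 159.9 CPM in non-PM replicates. PM replicate 3 was lower in Tcap than PM replicate 1, the reverse of their order in Acta1, Neb and Ttn. The log2 fold change of Tcap was -0.80 ± 0.80.

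At the Z-disc, Actn2 (gene 291245) measured 1435, 2553 and 1174 CPM in PM replicates 1 to 3, against 2213, 880.0 and 6790 CPM in non-PM replicates 1 to 3. It had the lowest log2 fold change of the 10, -0.94 ± 0.77. Ldb3 (gene 498587) measured 628.7, 1396 and 720.7 CPM in PM, against 1096, 457.8 and 2990 CPM in non-PM replicates (log2 fold change -0.73 ± 0.71). Both genes had their lowest and their highest value in the non-PM group. Des (gene 64362) measured 1339, 2013 and 1010 CPM in PM, against 2190, 719.8 and 4799 CPM in non-PM replicates, with a log2 fold change of -0.82 ± 0.70. It was the only gene of the 10 in which non-PM replicate 1 exceeded PM replicate 2.

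On the thick filament, Mybpc1 (gene 362867) measured 1548, 3729 and 1574 CPM in PM replicates 1 to 3, against 2319, 1100 and 7491 CPM in non-PM replicates 1 to 3 (log2 fold change -0.67 ± 0.78). At the triad, where the surface membrane meets the calcium store, Trdn (gene 59299) measured 213.7, 577.3 and 308.9 CPM in PM and 348.9, 125.8 and 869.6 CPM in non-PM replicates. Its log2 fold change, -0.29 ± 0.72, was the smallest in size of the 10, and with limma on log2(FPKM + 1) it was 0.087.

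Myoz1 ordered the libraries differently from the other 9 genes. Myoz1 (gene 498440) measured 38.0, 488.2 and 296.3 CPM in PM replicates 1 to 3, against 36.8, 28.0 and 207.3 CPM in non-PM replicates 1 to 3. PM replicates 2 and 3 were the highest libraries, while PM replicate 1 was close to non-PM replicate 1, and the groups overlapped. The log2 fold change of Myoz1 was 1.60 ± 1.08 (SE, 3 samples per group, edgeR unadjusted p = 0.186, adjusted p = 0.942). When non-PM replicate 3 was left out the value was 3.07 ± 1.05 (edgeR unadjusted p = 0.0271, adjusted p = 0.960), which met the relaxed criterion, as 4.42% of all genes did in that fit, and it was 0.88 without PM replicate 2. With a score of general muscle genes as a covariate, Myoz1 had 1.65 ± 0.60 and was the only 1 of the 10 to meet the relaxed criterion, which 9.84% of all genes met there (edgeR unadjusted p = 0.0318, adjusted p = 0.486). The other 9 lay between -0.94 and -0.29 with all libraries, and without non-PM replicate 3 only Des remained below 0, at -0.01.

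**Figure D2:**
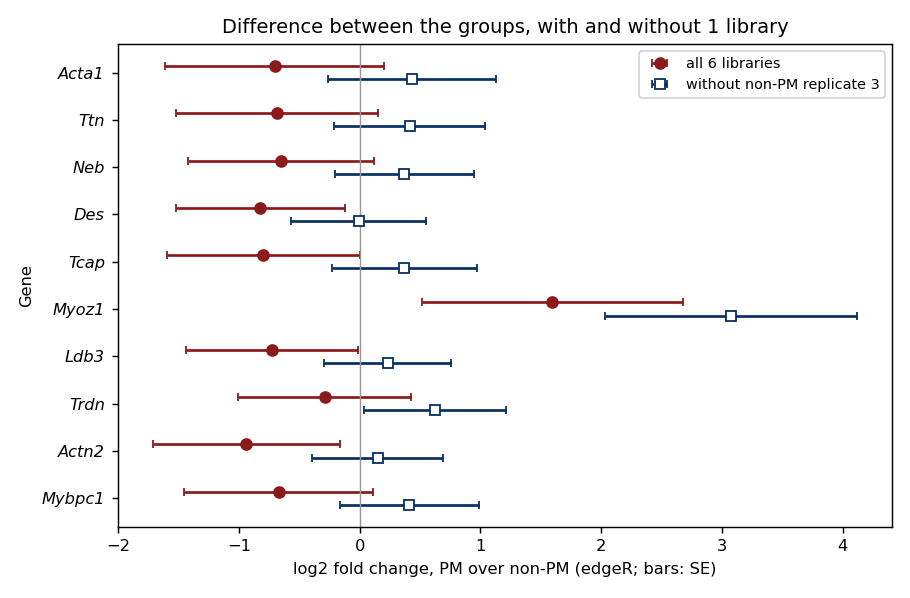
Log2 fold change of PM over non-PM (horizontal axis) for each of the 10 genes, with the approximate standard error from edgeR as bars, for all 6 libraries (filled circles) and without non-PM replicate 3 (open squares). With all libraries 9 genes lie between -0.94 and -0.29 and Myoz1 at 1.60, and without that library 9 genes lie above 0 and Des at -0.01.

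The other 9 genes moved together across the libraries, each within a 1.70-fold range of its level relative to the rest. Of the 10 genes, 6 (Acta1, Ttn, Neb, Ldb3, Trdn and Mybpc1) had the same order of libraries, from non-PM replicate 3 down through PM replicate 2, non-PM replicate 1, PM replicate 3 and PM replicate 1 to non-PM replicate 2. Tcap and Actn2 differed from it only in the order of PM replicates 1 and 3. The CPM of these 9 genes spanned 6.53-fold (Ldb3) to 9.85-fold (Tcap) between the highest and the lowest library, and that of Myoz1 spanned 17.4-fold. For the 9 genes the TMM factors, 0.791 in non-PM replicate 3 and 1.16 in non-PM replicate 2, widened these spans. The share of counts in the 10 genes, which uses no such factor, was 7.47 and 1.40% in these libraries. Set against the geometric mean FPKM of the other genes, from which Myoz1 was left out after its values were seen, each of the 9 moved over the 6 libraries by 0.20 (Ttn) to 0.77 (Trdn) on the log2 scale. Myoz1 moved by 3.66 on the same scale. Its relative log2 level was -2.87, -0.32 and 0.06 in PM replicates 1 to 3, against -3.60, -2.62 and -2.63 in non-PM replicates 1 to 3. These are descriptions of the 6 libraries, without a test.

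**Figure D3:**
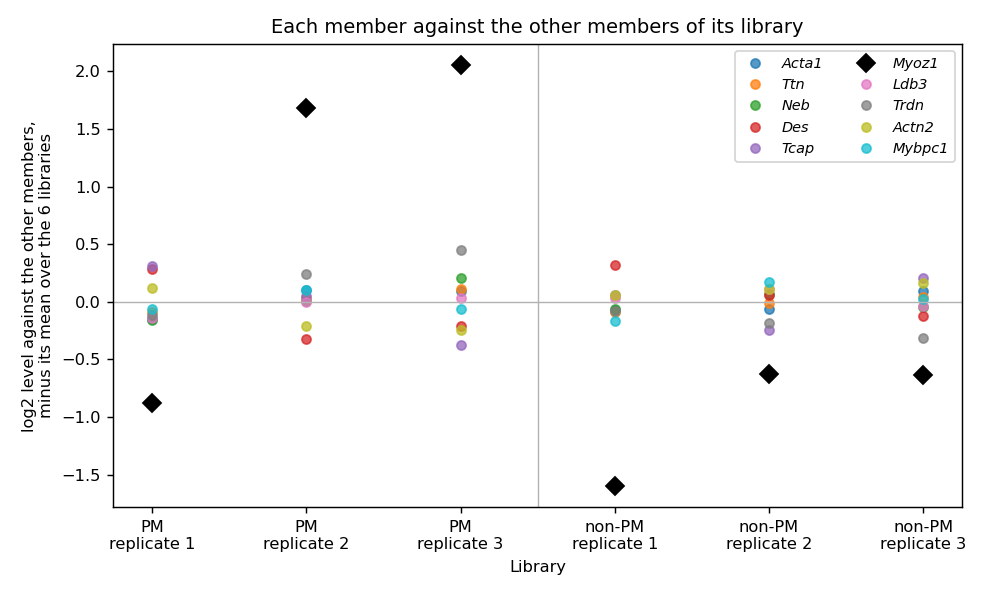
Log2 FPKM of each scaffold gene minus the mean log2 FPKM of the other scaffold genes (Myoz1 left out of that mean) in the same library, centred on its mean over the 6 libraries (vertical axis), by library (horizontal axis). The 9 other genes stay close to 0, with a range of at most 0.77 for any gene, while Myoz1 (black diamonds) is high in PM replicates 2 and 3.

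Acta1 and Ttn held a steady proportion to each other. Acta1 was 140.7, 152.0 and 143.9 times Ttn in FPKM in PM replicates 1 to 3, against 147.2, 141.4 and 150.8 times in non-PM replicates 1 to 3. The difference in mean log2 ratio was -0.01 (two-sided exact permutation p = 0.9). Acta1 made up 41.5 to 44.8% of the counts of the 10 genes in PM and 41.5 to 44.6% in non-PM libraries, and Ttn 21.3 to 21.9% in PM and 20.9 to 21.4% in non-PM libraries. The shares of both groups covered nearly the same range.

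Trdn and Actn2 had the largest shifts between the group means among the 9 after each was set against the other genes. The relative log2 level of Trdn was -2.41, -2.07 and -1.85 in PM replicates 1 to 3, against -2.38, -2.49 and -2.62 in non-PM replicates 1 to 3. PM replicate 1 lay within the non-PM range, and the means differed by 0.39. The relative log2 level of Actn2 was 1.26, 0.93 and 0.90 in PM, against 1.2, 1.25 and 1.30 in non-PM replicates, a difference of -0.22. In both genes, it was PM replicates 2 and 3 that lay outside the non-PM values. Des showed a like pattern, with 1.65, 1.04 and 1.15 in PM and 1.68, 1.42 and 1.24 in non-PM replicates.

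PM replicates 2 and 3 exceeded every non-PM library for 8 of 12 fast-fibre genes. The share of all genes with this pattern is not given here, so the count is a description. For Myh2, Tnnc2, Mylpf and Myl1, PM replicate 3 lay below non-PM replicate 3, as with Myl1 at 1964 CPM in PM replicate 3, against 4588 CPM in non-PM replicate 3. Among the 8, Myh4, which encodes myosin IIB of fast-contracting fibres, measured 26.9, 6343 and 6016 CPM in PM replicates 1 to 3, against 26.3, 14.6 and 64.1 CPM in non-PM replicates 1 to 3. Of the summed FPKM of the 10 scaffold genes, Acta1 made up 73.0 to 76.4% in PM and 73.8 to 76.6% in non-PM libraries. Ratios of this sum therefore mostly follow Acta1. The sum was set against that of 12 fast-fibre genes. This ratio was 2.27, 0.978 and 0.771 in PM replicates 1 to 3, against 2.63, 2.35 and 3.39 in non-PM replicates 1 to 3. The groups did not overlap, though PM replicate 1 was close to non-PM replicate 2, and the mean log2 ratio differed by -1.2 (two-sided exact permutation p = 0.1, the smallest that 3 against 3 allow, adjusted p = 0.4 over 6 such tests). This difference was -2.46 as a difference of mean log2(FPKM + 1) (exact permutation p = 0.2), and -1.66 on counts. Against 10 slow-fibre genes the ratio was 0.723, 1.09 and 1.24 in PM, against 0.684, 0.717 and 0.814 in non-PM replicates (log2 difference 0.43, exact permutation p = 0.2). Against 20 other muscle genes, which include fast-biased enzymes such as Ckm and Eno3, it was 2.90, 1.96 and 1.75 in PM, against 3.18, 2.78 and 3.43 in non-PM replicates (log2 difference -0.54, exact permutation p = 0.2). Within the scaffold, the ratio of Myoz1 to the slow-type Mybpc1 was 0.0772, 0.412 and 0.592 in PM, against 0.0499, 0.0799 and 0.0870 in non-PM replicates (log2 difference 1.92, exact permutation p = 0.3). Adjusted over the 6 tests, these p-values were 0.4 to 0.45. With 1 library left out, the difference for Myoz1 to Mybpc1 ranged from 1.34 without PM replicate 3 to 2.81 without PM replicate 1. The part of fibre type in the level of Myoz1 was not tested.

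**Figure D4:**
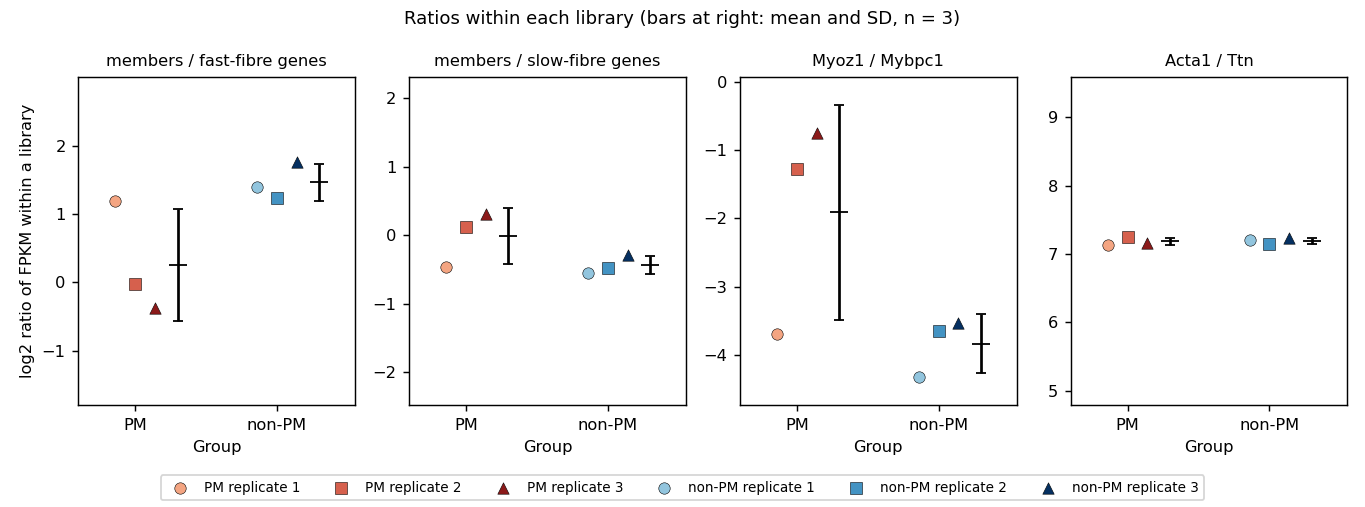
Log2 ratio of FPKM within each library for the scaffold genes over fast-fibre genes, the scaffold genes over slow-fibre genes, Myoz1 over Mybpc1 and Acta1 over Ttn, with PM at the left and non-PM at the right of each panel, bars giving mean and SD (n = 3), and each panel spanning the same number of log2 units. PM replicates 2 and 3 part from the other 4 libraries in the ratios to fast-fibre genes, to slow-fibre genes and of Myoz1 to Mybpc1, and Acta1 over Ttn differs by -0.01 between the group means.

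Within each library, fast-type genes were set against a paralogue, and each of the 3 pairs held 1 scaffold gene. Actn3, the α-actinin of fast fibres, made up 0.196, 34.3 and 46.2% of the summed FPKM of Actn3 and Actn2 in PM replicates 1 to 3, against 0.118, 0.493 and 0.123% in non-PM replicates 1 to 3. Mybpc2, the fast type of myosin-binding protein C, made up 0.720, 18.5 and 31.1% of Mybpc2 and Mybpc1 in PM, against 0.0834, 0.559 and 0.235% in non-PM replicates. Myoz1 made up 7.30, 35.3 and 45.7% of Myoz1 and its slow-fibre paralogue Myoz2 in PM, against 3.97, 9.27 and 7.51% in non-PM replicates. In all 3 pairs PM replicates 2 and 3 were high, and PM replicate 1 lay close to or within the non-PM range.

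The wider sarcomere was measured by 56 further genes in 5 lists of partners. Of these, 3 were higher and 1 was lower in PM tendons by the relaxed criterion, which 1.47% and 1.49% of all genes tested met in those directions, and 52 did not pass. Their median log2 fold change was -0.50 with 48 of 56 below 0, beside -0.00 for all genes tested, and it was 0.30 with 45 of 56 above 0 without non-PM replicate 3. Among thin filament partners, α-tropomyosin Tpm1 was 1.56 ± 0.63 higher on the log2 scale, with overlapping groups. It passed in 2 of 6 fits with 1 library left out. The cardiac and fetal actin Actc1 had a log2 fold change of -1.19 ± 0.48, also with overlapping groups. Actc1 passed in 3 of 6 such fits and had a value of -0.52 without non-PM replicate 3. Tpm2 had -0.84 ± 0.74 and Klhl41, which stabilises nebulin, -0.78 ± 0.69, and neither passed. Among Z-disc partners Actn3 was 7.25 ± 1.96 higher, also in all 6 fits with 1 library left out, with overlapping groups, while the small heat shock protein Cryab (-1.05 ± 0.83), Fhl1 (-1.05 ± 0.71) and Myoz2 (-1.10 ± 0.80) did not pass. Mybpc2 was 5.93 ± 1.65 higher and also passed in all 6, again with overlapping groups. It measured 10.4 CPM in PM replicate 1, below the 16.3 CPM of non-PM replicate 3. Mybph had -0.44 ± 0.53. Of the titin and M-band partners 0 of 12 passed in edgeR, where Myom1, a cross-linker of the M-band, had -0.49 ± 0.71, Trim54 -0.75 ± 0.75 and the titin-binding Ankrd23 -0.14 ± 0.83. Of the triad partners 0 of 12 passed, with calsequestrin Casq1 at 0.52 ± 0.77, Hrc at -0.43 ± 0.68 and Srl at -0.45 ± 0.73.

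Of the 12 fast-fibre genes 5 were higher by the relaxed criterion, beside 1.47% of all genes (Actn3, Mybpc2, Myh4 at 6.88 ± 1.88, the calcium buffer Pvalb at 6.52 ± 1.59 and Myh1 at 2.60 ± 0.90, which passed in 3 of 6 fits with 1 library left out and had 1.60 without PM replicate 2). The groups overlapped for each of these 5 genes, as PM replicate 1 lay below the highest non-PM library. Without non-PM replicate 3 the count of fast-fibre genes called higher was 9 of 12, beside 277 of all 18699 genes tested there. With the muscle score as a covariate it was 10 of 12, beside 1067 of all 18134 genes. The median log2 fold change of the 12 was 1.79 with all libraries and 2.90 without non-PM replicate 3, and the most abundant of them, Myl1 (-0.15 ± 0.76), Mylpf (0.81 ± 0.72) and Tnnt3 (1.85 ± 0.92), did not pass. Of the 10 slow-fibre genes 0 passed and all had values below 0, with a median of -1.13 that was -0.27 without non-PM replicate 3, among them myoglobin Mb (-0.78 ± 0.83), Myl3 (-1.04 ± 0.76) and Tnnt1 (-1.17 ± 0.73). Of the 20 other muscle genes 0 passed, with Ckm at 0.27 ± 0.85, Cox6a2 at -0.86 ± 0.72 and Eno3 at 0.42 ± 0.81. The scaffold genes had a median of -0.69 with all libraries and 0.39 without non-PM replicate 3, and it lay between those of the fast and the slow list in both settings. These medians are descriptions, since the lists share the same libraries and some genes. Actn3 and Mybpc2 are both partners and fast-fibre genes, and Myoz2 and Csrp3 both partners and slow-fibre genes. Several of the 20 other muscle genes, such as Casq1 and Klhl41, are also partners.

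Myogenic markers, which would mark regenerating fibres, summed to 128.5, 138.5 and 106.1 FPKM in PM replicates 1 to 3, against 181.3, 108.6 and 269.8 FPKM in non-PM replicates 1 to 3. Of 7 in the table, 3 had log2 fold changes above 0, among them Myod1 at 1.25 ± 0.89, and 4 below 0. Myf5 (-1.30 ± 0.51) and Actc1 met the relaxed criterion with lower values in PM, beside 1.49% of all genes tested. The other 5 missed it, and the groups overlapped for Myf5 and Actc1. Myf5 passed in 2 of 6 fits with 1 library left out and was at -0.68 without non-PM replicate 3. Embryonic myosin Myh3 measured 289.8, 540.7 and 348.0 CPM in PM, against 561.8, 238.7 and 870.9 CPM in non-PM replicates. The PM values of Myh3 lay within its non-PM range, as those of 9 scaffold genes did. The 4 endothelial markers took 0.0461 to 0.0766% of counts in PM and 0.0358 to 0.0515% in non-PM libraries. Among them Cdh5 (0.58 ± 0.23) and Tek (0.47 ± 0.17) met the relaxed criterion with higher values in PM, beside 1.47% of all genes tested. With 1 library left out, Cdh5 met it in 1 and Tek in 3 of 6 fits.

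The genes whose pattern over the 6 libraries was most like the mean of the 10 scaffold genes were sought among 11938 other genes with a mean of at least 1 FPKM. The scaffold mean included Myoz1. The 10 most alike by Pearson's r of log2 CPM (n = 6, 0.998 to 0.999, a description) were Vti1b, Sptb, Adssl1, Homer1, Kcnj11, Dcaf6, Pde4dip, Ttc7b, Tmod4 and Eef1a2. Tmod4 caps the pointed end of thin filaments, and Sptb is a spectrin of the membrane skeleton. Vti1b, a SNARE protein made by most cells, followed the order with a small span, at 18.6 to 21.8 CPM in PM and 17.1 to 23.9 CPM in non-PM replicates. Kcnj11, the pore of a potassium channel sensitive to ATP, spanned more, at 44.3, 139.0 and 52.4 CPM in PM and 69.5, 26.8 and 260.1 CPM in non-PM replicates.

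Myoz1 was given the same search after its values were seen. Its 10 nearest genes were Phkg1, Atp2a1, Tnni2, Myom2, Prkab2, Phka1, Tnnt3, Gpd2, Pex7 and Sar1b (r from 0.983 to 0.999, n = 6). Atp2a1, the calcium pump of fast fibres, measured 398.0, 4367 and 2650 CPM in PM replicates 1 to 3, against 354.6, 266.3 and 1613 CPM in non-PM replicates 1 to 3. Tnni2 and Tnnt3 encode fast troponins, and Phkg1 and Phka1 encode subunits of phosphorylase kinase, which starts the breakdown of glycogen. None of these 10 was among the 10 nearest to the mean of the scaffold genes, in which Myoz1 was included. Myom2, the M-band protein of fast fibres, measured 77.5, 429.1 and 304.4 CPM in PM, against 57.8, 64.3 and 228.1 CPM in non-PM replicates, in the order of Myoz1 but for the 2 lowest libraries.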

How the data were processed

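RNA was converted to stranded, poly(A)-selected libraries and read from both ends. Per the submitters' processing notes FastQC 0.11.7, Trimmomatic 0.38 and HISAT2 2.1.0 were used with Rnor_6.0, and StringTie is named in the study's methods for assembly. The deposited table holds whole-number counts per gene and FPKM computed by the authors. For the counting step, the treatment of strand and of multiply matching reads was not given in the sources used here. The whole table was fitted with edgeR 4.0.16 under R 4.3.3 (filterByExpr, TMM, two-sided quasi-likelihood test, group as the only term), with Benjamini-Hochberg adjustment over all genes tested. Standard errors were approximated by dividing the size of each log2 fold change by √F. Alternatives used DESeq2 1.42.0, limma 3.58.1 on log2(FPKM + 1) and log2(FPKM + 0.1), DESeq2 size factors in edgeR, no filter, a replicate block, a muscle score covariate and 1 library left out. The edgeR fit was tested on counts simulated with 1 dispersion shared by all genes, which checks the code and not its power in these samples. Between any pair of libraries, chi-square divided by its degrees of freedom was at least 190.7, so none was a duplicate. Ratios and shares were compared by exact permutation tests.

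Genes were named by rule: the 10 scaffold genes, up to 3 genes of each further list by mean FPKM with any past the relaxed criterion, and the 10 most alike. Cell type markers are given as summed shares of counts, or as summed FPKM for myogenic genes, and single markers named beyond that rule (Krt5, Krt14, the tendon and the heart markers) were chosen after their values were seen. The scaffold genes and lists were chosen with earlier results of these data known. The promoters are from RefSeq. The symbol Mymk had no match.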

Additional observations from a re-analysis of the deposited data

How the results depend on the processing

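The log2 fold changes of Acta1, Ttn, Neb, Des, Tcap, Ldb3, Actn2 and Mybpc1 stayed below 0 and that of Myoz1 above 0 under every alternative that kept all 6 libraries, and Trdn turned to 0.087 and 0.091 with pseudocounts of 1 and 0.1 on FPKM, where the median of all genes was 0.05 and 0.10. Their size depended on the method. The median of the 10 scaffold genes was -0.69 in the main fit, -0.74 in DESeq2, -0.39 with the replicate block and -0.38 with the muscle score. With limma on FPKM it was -0.24 at either pseudocount. With 1 library left out, Acta1 ranged from -1.23 to 0.43, Ttn from -1.16 to 0.41, Neb from -1.11 to 0.37, Des from -1.26 to -0.01, Tcap from -1.29 to 0.37, Myoz1 from 0.88 to 3.07, Ldb3 from -1.17 to 0.23, Trdn from -0.78 to 0.62, Actn2 from -1.39 to 0.15 and Mybpc1 from -1.22 to 0.41, and each value above 0 other than those of Myoz1 was the one without non-PM replicate 3. The number of scaffold genes past the relaxed criterion was 0 to 1 with 1 library left out and 1 with the muscle score as a covariate. That gene was Myoz1, at 1.65 ± 0.60 with the covariate (edgeR unadjusted p = 0.0318, adjusted p = 0.486), where 9.84% of all genes met the criterion. The score holds fast-biased genes, and its part in that value was not tested. The difference in mean log2 share ranged from -0.85 to 0.36 and that of Acta1 to Ttn from -0.042 to 0.014, the first above 0 without non-PM replicate 3 and the second without PM replicate 1 or non-PM replicate 3. The other 4 ratios kept their direction under the alternatives run, while their size moved, from -2.46 to -0.89 for scaffold to fast-fibre genes, from -0.75 to -0.21 for scaffold to other muscle genes, from 0.27 to 0.66 for scaffold to slow-fibre genes and from 1.34 to 2.81 for Myoz1 to Mybpc1. All genes past the relaxed criterion numbered 537, of which 49.5% were higher, and 206 to 1209 with 1 library left out (206 without PM replicate 3, 1209 without non-PM replicate 2, 826 without non-PM replicate 3), 1784 with the covariate (59.8% higher), 292 and 319 on FPKM with pseudocounts of 1 and 0.1 (58.9 and 60.2% higher), 821 in DESeq2 and 155 with the replicate block. DESeq2 called 13 genes after adjustment and edgeR 0, with 537 at an unadjusted p under 0.05. The replicate block gave Myoz1 1.40 and Acta1 -0.39, and 0 scaffold genes past the relaxed criterion (edgeR, 0 at an unadjusted p under 0.05). Deviations of same-numbered samples from their group means correlated at -0.17, -0.39 and -0.31, and no sample correlated best with its own number. The 3 deviations of a group sum to 0, so these correlations depend on one another and cannot exclude a pairing. The cause of the changes between settings was not tested. With 3 samples per group, no exact test of a share or ratio could go below 0.1.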
